A study of Mus musculus with 9 samples.

Results

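Later neuroblasts with Tshz2 and Chodl were 478 cells of the 18390 retained cells in the series (2.60%), taken from 4 droplet libraries of cells sorted from the adult mouse brain. The members were chosen by their own RNA counts: a cell needed at least 1 UMI (a counted RNA molecule) of Dcx, at most 1 UMI each summed over the cycling genes Top2a, Mki67, Nusap1 and Cenpf, over the glial transporters Slc1a2 and Slc1a3, over Zic1 and Zic2, and over Foxp2 and Sfrp2, and it needed at least 3 UMIs of Tshz2, Chodl and Sln together, more than of St18, Dlx1as and Trpc4 together. Of these cells, 202 came from the WT young library, 25 from WT old, 208 from KO young and 43 from KO old. So 410 members were young and 68 were old, and every statement on old mice rests on those 68 cells.

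All mice carried the TiCY alleles, in which tamoxifen-induced Cre under the Tlx promoter switches on eYFP in neural stem cells and so labels the cells these later give rise to. WT young mice were 16 weeks old, received tamoxifen at 10 weeks and were followed for 6 weeks. WT old mice were 80 weeks old, with tamoxifen at 71 weeks and a chase of 9 weeks. KO mice (IFNAGR KO) lack the receptors for type I and type II interferon. KO young mice were 16 weeks old with tamoxifen at 7 weeks, KO old mice were 92 to 105 weeks old with tamoxifen at 85 and 98 weeks, and the chase was stated as 9 weeks in both. The tamoxifen ages and chase of KO old do not add up to its labelled ages, and both are given here as stated. Each group was 2 mice pooled in 1 reaction, so the group and its reaction cannot be told apart, and a comparison between 2 libraries carries no replicate error. Cells from the ventricular-subventricular zone (vSVZ) were sorted as eYFP+ or GLAST+, and cells from the rest of the brain (RoB: striatum, rostral migratory stream and olfactory bulb) as eYFP+ or as eYFP- and PSA-NCAM low, after removal of CD45+, Ter119+ and O4+ cells. These gates set part of the make-up of every library.

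Neuroblasts are the migrating daughters of neural stem cells in the vSVZ. They express Doublecortin (Dcx), a protein that binds microtubules, travel along the rostral migratory stream to the olfactory bulb and mature there into interneurons. Along this path they leave the cell cycle, lose progenitor factors and build the cytoskeleton of a growing neurite. Tshz2 encodes a teashirt zinc finger factor, Chodl encodes chondrolectin, a membrane protein with a C-type lectin domain, Sln encodes sarcolipin, a small inhibitor of the endoplasmic reticulum calcium pump best known from muscle, and Stmn2 encodes stathmin-2, which acts on microtubules in growing axons.

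The depth of the libraries differed. Total UMIs were 43961647 for WT young, 27096070 for WT old, 78028524 for KO young and 37111949 for KO old, and median UMIs per retained cell were 5067, 7437, 7133 and 7091 in that order. Members had median UMIs of 4806.5, 6190, 6278 and 6169, which gave 968775, 174678, 1369357 and 271786 member UMIs for the sums described here. The WT young library was therefore the shallowest per cell. No member was predicted to be a doublet, no barcode sequence was shared by members of 2 libraries, and 2 members shared a sequence with a retained cell elsewhere (30 sequences were shared among all retained cells). In all retained cells, Ifngr1, encoding a subunit of the type II receptor, stood at 47.3 and 85.7 CPM (UMIs of a gene per 1000000 UMIs of the cells summed) in the WT libraries (young, old) and at 2.78 and 4.40 in the KO libraries. Ifnar1, of the type I receptor, stood at 21.1 and 28.5 in WT against 8.0 and 6.64 in KO. Both were lower in both KO libraries, although counts at the 3′ end need not lie in the deleted part of a gene. Within the members themselves, Ifngr1 had 9, 2, 3 and 1 UMIs and Ifnar1 had 12, 3, 11 and 4 UMIs in WT young, WT old, KO young, then KO old, too few for a comparison.

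The label was checked against genes that the rule did not use. Stmn2, which the rule did not use, had a UMI in 478 of 478 members, against 8.93% of 347 microglia, which should lack it (median UMIs 4765 to 6432 in microglia and 4806.5 to 6278 in members). Stmn2 stood at 4117, 2954, 3340 and 3536 CPM in WT young, WT old, KO young, then KO old members. Other neuroblast genes were abundant too. The neuroblast surface protein Cd24a stood at 1059 to 1282 CPM, the neuronal tubulin Tubb3 at 2324 to 3706, the SoxC factor Sox11 at 3675 to 4298 and the forebrain interneuron factor Dlx2 at 704 to 857 over the 4 libraries.

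Markers of other cell types were low in the members. The summed neuron markers Syt1, Camk2b, Rbfox3, Snap25 and Nefl reached 133, 441, 148 and 213 CPM in WT young, WT old, KO young, then KO old, against 5445 to 6547 in neurons of the same libraries. Members of both old libraries were thus above both young ones for these markers, with WT old highest. The 5 astrocyte markers summed to 51.5 to 90.6 in members against 2516 to 5052 in near-empty barcodes, which hold free RNA. Microglia markers summed to 7.36 to 22.9, oligodendrocyte markers to 12.4 to 45.8, endothelial markers to 0 to 13.4, oligodendrocyte precursor markers to 0 to 2.92, olfactory ensheathing glia markers to 28.9 to 103 and cycling markers to 0 to 15.3. At 0 in all members were 1 of 5 astrocyte, 1 of 5 microglia, 1 of 5 oligodendrocyte, 2 of 4 precursor and 2 of 4 endothelial markers. Astrocyte genes Slc1a2 and Slc1a3 and the cycling genes were capped by the rule. Of the 478 members, 6 also held at least 6 UMIs of Syt1 and Camk2b together, the count that defined neurons here: 1 each in WT young, WT old and KO young, and 3 in KO old. These 6 cells carried both results called for age, which are given with and without them. With them left out, the summed neuron markers stood at 123, 131, 143 and 134, and the old libraries were no longer above the young ones. Syt1 and Camk2b are part of this sum, so the neuron rule itself set part of this fall and of the level in neurons.

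**Figure D1:**
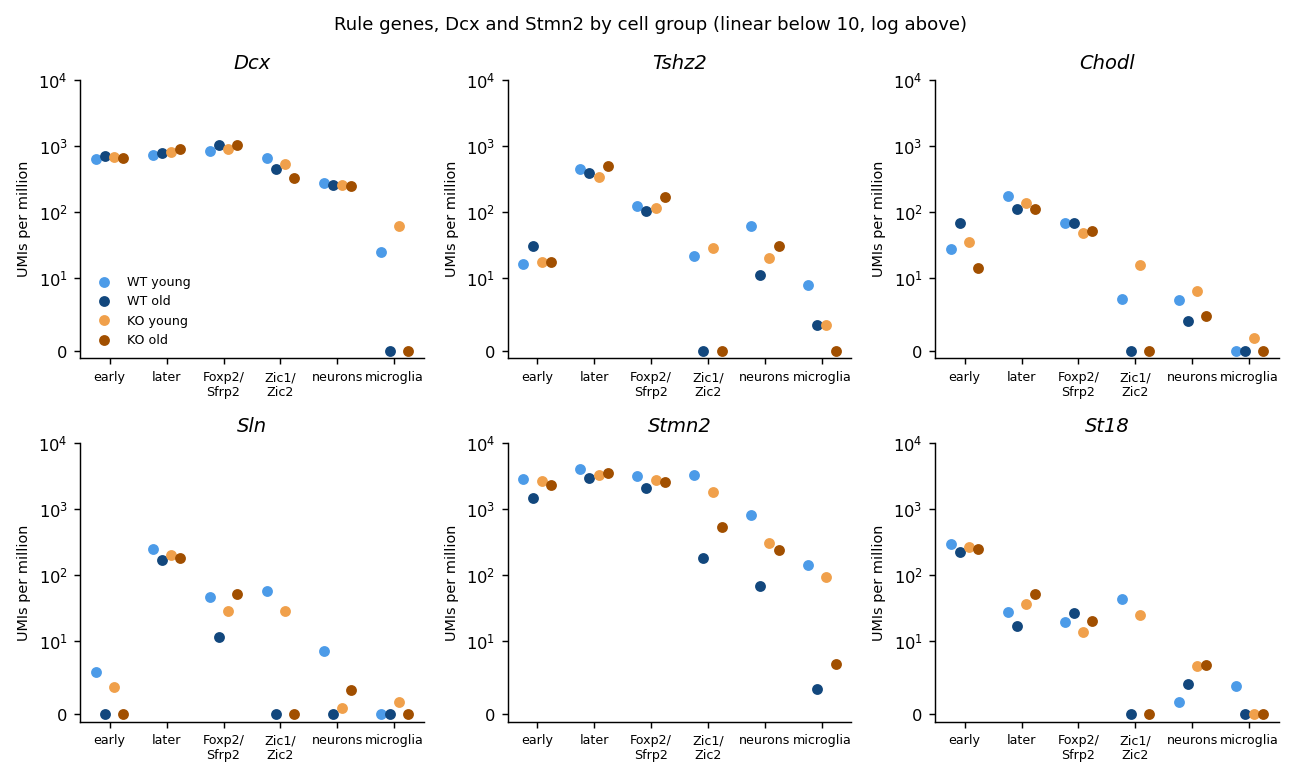
CPM (y axis, linear below 10 and logarithmic above) of 6 genes in early, later, Foxp2/Sfrp2 and Zic1/Zic2 neuroblasts, neurons and microglia; each point is 1 of the 4 libraries. Tshz2, Chodl and Sln are highest in the later group, which they define, and St18 in the early group, which it helps to define, while Dcx and Stmn2 are high across early, later and Foxp2/Sfrp2 neuroblasts.

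The genes of the rule divided the members into overlapping kinds. Tshz2 (GRCm38 chr2:169633013-170071816, plus strand) had a UMI in 375 members (78.5%), Chodl (chr16:78930948-78951733, plus strand) in 198 (41.4%) and Sln (chr9:53850164-53854560, plus strand) in 207 (43.3%). Microglia held a UMI of Tshz2 in 2.31% of cells, of Chodl in 0.288% and of Sln in 0.288%. Tshz2 without the other 2 genes marked 122 members, Tshz2 with Chodl 120, Tshz2 with Sln 107 and all 3 genes 26. Sln alone marked 51 members, Chodl alone 29, and Chodl with Sln but not Tshz2 marked 23. The label's pair of Tshz2 and Chodl was thus found together in 146 of the 478 members.

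The rule fixed part of the level of its own genes. Summed over members, Tshz2 was at 441, 384, 340 and 486 CPM in WT young, WT old, KO young, then KO old, Chodl at 175, 109, 134 and 110, and Sln at 246, 172, 202 and 180. Dcx (chrX:143855842-143933311, minus strand) was at 729, 767, 806 and 883. Most members lay close to the threshold: 201 (42.1%) had exactly 3 UMIs of Tshz2, Chodl and Sln, 125 had 4, 59 had 5, 37 had 6, 22 had 7 and 34 had 8 or more, with 12 as the highest. Just outside were 376 cells with a sum of 2. In these, Stmn2 stood at 3881, 2960, 3252 and 2627 CPM, against 4064, 2723, 3456 and 3149 in the members with a sum of 3. The TALE homeobox factor Pbx3 stood at 528, 344, 548 and 795 just outside and at 563, 525, 500 and 513 just inside, and the cyclin gene Ccnd2 at 1758, 1643, 1639 and 1084 outside and at 1849, 968, 1753 and 2151 inside. Neither gene was higher on the same side of the threshold in all 4 libraries, so these genes did not set the members apart from the cells just outside. WT old and KO old held 19 and 21 cells just outside and 10 and 12 just inside, too few to settle whether the groups differ. The median UMI count was 5011 for a sum of 2, 5315 for a sum of 3, 5628 for 4 or 5 and 6263 for 6 or more.

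Whether the rule genes occurred in the same cells was asked among the cells that passed every gate of the rule except the last on Tshz2, Chodl and Sln (1848 for WT young, 233 for WT old, 1322 for KO young and 361 for KO old). Chodl had a UMI in 16.8% of the WT young cells with Tshz2 and in 12.2% of those without. The same pair was 20.7% against 13.1% for WT old, 24.3% against 14.1% for KO young and 19.8% against 7.41% for KO old. Sln had a UMI in 15.4% of WT young cells with Tshz2 against 10.5% without, and the pairs for WT old, KO young, then KO old were 12.1% against 6.29%, 17.2% against 11.8% and 18.7% against 8.89%. Both genes were thus more frequent beside Tshz2 in 4 of 4 libraries, with median UMIs that were slightly lower in the cells with Tshz2 in each library (4333 against 4397, 5718.5 against 5813, 5955 against 6054 and 5776 against 6062.5). Chodl and Sln did not go together in the same way. Chodl was less frequent beside Sln in WT young (11.5% against 13.7%), WT old (5.56% against 15.8%) and KO young (17.3% against 17.5%), and more frequent in KO old (17.1% against 9.69%).

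Members with at least 2 UMIs of Sln (151 cells) were set beside the 271 members without Sln. In WT young, WT old, KO young, then KO old these were 61, 6, 71 and 13 cells with Sln and 116, 17, 114 and 24 without, so the old values rest on few cells. This split was looked at after the values were seen and is a description. Ccnd2, which drives proliferation in progenitors, stood at 2323, 2437, 2222 and 2606 CPM with Sln and at 1579, 1012, 1426 and 1912 without, in WT young, WT old, KO young, then KO old. Pbx3 went the other way, with 400, 250, 417 and 296 with Sln against 582, 497, 543 and 663 without. Syt1, the calcium sensor of synaptic vesicles, stood at 24.5, 104, 23.2 and 34.1 with Sln against 109, 352, 87.3 and 219 without. Of the members without Sln, 5 passed the neuron rule, and with these left out Syt1 stood at 90.4, 73.0, 78.0 and 147, so that the direction turned in WT old. Nr2f2, an orphan nuclear receptor of interneuron subtypes, stood at 3.06, 20.8, 13.5 and 0 against 30.5, 36.1, 57.7 and 49.4. Its values without Sln were 30.8, 41.7, 58.1 and 23.3 when the cells that passed the neuron rule were left out. Stmn2 was higher with Sln in 4 of 4 libraries (4579, 3375, 3675 and 3596 against 3753, 2908, 3164 and 3514). The members with Sln were deeper, with a median of 6160 UMIs against 5349, and CPM are scaled for this. The rule ties this split to Tshz2, since a member without Sln needed its 3 UMIs from Tshz2 and Chodl: Tshz2 stood at 180, 208, 178 and 273 with Sln and at 599, 434, 446 and 600 without. Pbx3 was also higher in members with at least 3 UMIs of Tshz2 (620, 368, 491 and 613) than in those with 0 (329, 298, 444 and 272), so Sln and Tshz2 cannot be told apart in these differences. Of 14 measured genes of calcium pumps, their small regulators and calcium stores, 5 had no UMI in any member (Pln, Atp2a1, Atp2a3, Ryr1 and Ryr3). Pln, Atp2a1 and Atp2a3 had none in near-empty barcodes of any library either. Atp2a2, which encodes the widely expressed endoplasmic reticulum pump SERCA2, had 20, 7, 45 and 8 UMIs.

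The share of later neuroblasts was lower in both old libraries when taken over all retained cells, and within overlapping intervals when taken over Dcx cells. Of all retained cells, young members made up 3.41% (WT) and 3.13% (KO), with exact Clopper-Pearson 95% intervals of 2.97 to 3.91 and 2.73 to 3.58, and old members 1.03% (WT, interval 0.669 to 1.52) and 1.26% (KO, interval 0.913 to 1.69). Of the non-cycling, non-glial Dcx cells (2356, 316, 1915 and 524), listed here as WT young, WT old, KO young, then KO old, they were 8.57% (7.47 to 9.78), 7.91% (5.19 to 11.5), 10.9% (9.50 to 12.3) and 8.21% (6.00 to 10.9). Of later and early neuroblasts together they were 66.7%, 62.5%, 63.4% and 58.1%. The intervals cover counting error only, the sort gates can set the share of all cells, and with 1 library per group the difference between ages has no test. The smallest share of all cells was found in WT old, with KO old within its interval. A count threshold depends on depth. With every cell thinned to 2000 UMIs, shares of all cells were 0.814%, 0.213%, 0.600% and 0.300%, keeping both old libraries below both young ones, and shares of Dcx cells were 2.37%, 1.74%, 2.04% and 2.17%, with WT young rather than KO young highest.

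**Figure D2:**
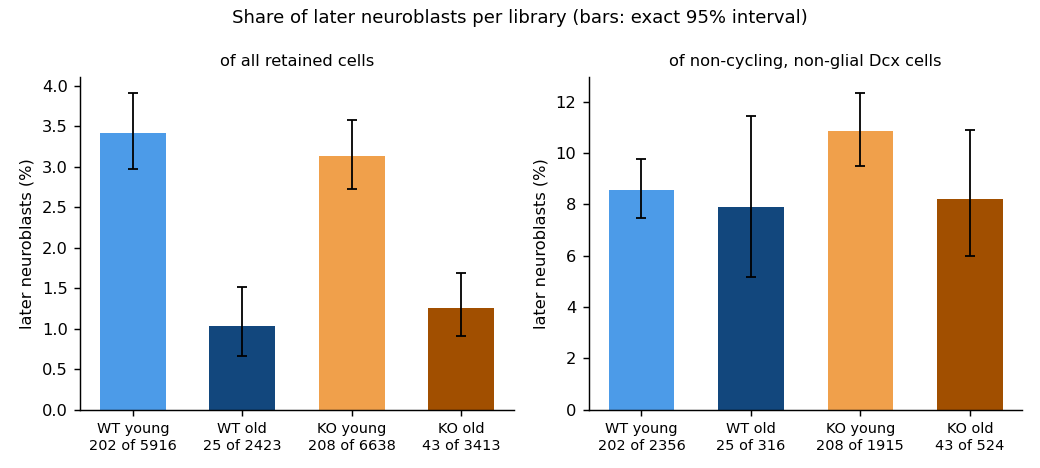
Later neuroblasts in percent of all retained cells (left) and of non-cycling, non-glial Dcx cells (right) in each library, with exact 95% binomial intervals that cover counting error only. The old libraries are at 1.03% and 1.26% of all cells against 3.41% and 3.13% in the young ones, while the shares of Dcx cells lie between 7.91% and 10.9%.

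Most later neuroblasts carried the eYFP of the lineage trace. A UMI of eYFP was found in 84.2% of WT young members, 72.0% of WT old, 75.0% of KO young and 79.1% of KO old. The early neuroblasts, described below, were deeper than the members (median UMIs 6615 to 9186). They held a UMI of eYFP in 85 of 101 (84.2%), 3 of 15, 105 of 120 (87.5%) and 23 of 31 cells (74.2%), in the same order. Beside the members, eYFP was thus as frequent in early cells of WT young, more frequent in KO young and less frequent in both old libraries. The Foxp2/Sfrp2 neuroblasts held it in 77.6%, 56.8%, 73.0% and 60.6% of cells, neurons in 23.3%, 6.32%, 16.2% and 9.14%, and microglia, which the trace should not label, in 7.59%, 0% (0 of 45 cells; exact upper bound 7.87%), 7.07% and 4.44%. Members were far above the microglia in each library at similar depth. The eYFP level was 596, 315, 418 and 328 CPM, highest in WT young and lowest in WT old, and it passed neither the age nor the genotype threshold in edgeR's quasi-likelihood test (Benjamini-Hochberg adjusted p = 0.662 and 0.999). Recombination, the chase and eYFP sorting cannot be told apart from expression in these values.

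The hashtags, antibody-borne tags that name tissue and mouse and that the rule did not use, could be called in 14 members, with at most 3 for a mouse. Summed hashtag counts were used instead. RoB tags were 34.6%, 45.7%, 29.5% and 24.8% of the hashtag counts of later neuroblasts in WT young, WT old, KO young, then KO old, and 42.7%, 42.6%, 27.7% and 24.0% of those of early neuroblasts. The later share was higher in 3 of 4 libraries. The exception was WT young, at -8.11 points, whose hashtag library has a title naming further content that it does not specify. Over all of them, the mean difference was -0.60 percentage points (SD 5.10, n = 4 libraries; two-sided exact sign-flip permutation test, p = 1.0, where 0.13 is the smallest p that 4 libraries allow). Near-empty barcodes held 37.6%, 44.0%, 32.1% and 27.3%, a mean of 1.61 points above the members (later lower in 3 of 4 libraries; exact p = 0.25). The tissue of the members was therefore not resolved: their tags had a make-up close to that of free tags.

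Later neuroblasts were then set beside early neuroblasts, the 267 cells that passed the same gates with at least 3 UMIs of St18, Dlx1as and Trpc4 and more of them than of Tshz2, Chodl and Sln (101, 15, 120 and 31 cells). Because the rule itself sets these groups apart, the differences are described and not tested. Early cells were deeper, with median UMIs of 6615, 7472, 8698.5 and 9186. Of 2858 genes at 50 CPM or more in the higher group in every library, rule genes aside, 468 (16.4%) were higher in later cells in 4 of 4 libraries and 485 (17.0%) were lower. With every cell thinned to 2000 UMIs, which leaves few cells, the counts were 274 and 68. The unthinned shares are the background for each list that follows.

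The 15 genes named as highest in later over early neuroblasts included ligands and receptors of cell guidance and adhesion. Nxph1, a secreted ligand of neurexins, stood at 81.5, 63.0, 71.6 and 62.5 CPM in later cells and at 8.68, 0, 8.52 and 3.50 in early cells. Plxna4, a semaphorin receptor, stood at 249, 275, 297 and 379 against 37.6, 136, 45.4 and 59.5. Erbb4, the neuregulin receptor that interneurons use in migration, stood at 184, 269, 202 and 217 against 44.8, 106, 63.4 and 101. All libraries of the later group were above all libraries of the early group for these 3 genes. Of 10 guidance and migration genes at this level, 6 were higher in 4 of 4 libraries (St8sia2, which makes polysialic acid, Robo2, Plxna2, Plxna4, Erbb4 and the Reelin receptor Lrp8) and 2 were lower (Epha4 and Epha5, receptors of ephrins), with a median log2 ratio of 0.55 against -0.03 over all 2858 genes. The list holds Plxna4 and Erbb4 (median log2 ratios 2.57 and 1.45), which were also among the 15 genes named for their size. Without the cells that passed the neuron rule (a setting added after the data were seen), 5 of 9 were higher and 1 was lower, and Epha5 turned to 0.47.

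The cytoskeleton of growing neurites differed in the same direction across most of its genes. Of 22 microtubule and growth cone genes at this level, 16 were higher in later cells in 4 of 4 libraries and 1, Dclk2, was lower, with a median log2 ratio of 0.40. Stmn2 stood at 4117, 2954, 3340 and 3536 CPM in later against 2815, 1473, 2681 and 2281 in early cells, with a median log2 ratio of 0.59. Mapt, encoding tau, stood at 423, 464, 445 and 423 against 275, 219, 249 and 259. Tubb2a, a beta-tubulin, stood at 1164, 1048, 1122 and 993 against 667, 740, 661 and 553. Groups did not overlap for these 3 genes. Stmn1, Tubb3, Map2, Dclk1 and Dpysl2 went different ways in different libraries. Without the cells that passed the neuron rule, 12 were higher and 3 lower.

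Transcription factors of olfactory bulb interneurons split evenly. Of 22 at this level, 7 were higher, among them Sp8, Pbx3, Tshz1, Runx1t1 and Nfib, and 7 were lower, among them Dlx5, Nr2f1, Nr2f2, Nfia and Insm1. Pbx3 stood at 523, 441, 489 and 526 CPM in later against 88.2, 144, 147 and 199 in early cells. Runx1t1, a transcriptional corepressor, stood at 342, 349, 388 and 412 against 68.0, 174, 107 and 119. Tshz1, a factor needed for bulb interneurons and a relative of Tshz2, stood at 264, 338, 293 and 228 against 95.5, 181, 100 and 129. Insm1, a zinc finger factor of newly born neurons and their progenitors, stood at 77.4, 40.1, 71.6 and 58.9 against 310, 257, 320 and 252, so that no library of later cells reached the lowest early one.

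Among the genes at the other end were several known from progenitors. Vim, the intermediate filament of radial glia and progenitors, stood at 147, 28.6, 94.2 and 125 CPM in later cells against 976, 370, 852 and 920 in early cells. Sox9, a stem cell and glial factor, stood at 43.4, 40.1, 80.3 and 47.8 against 202, 136, 276 and 255. Ccnd2 stood at 1845, 1460, 1726 and 2141 against 4108, 2176, 3595 and 3872. Of 4 stem and progenitor genes at this level, Sox9 and Ccnd2 were lower in 4 of 4 libraries and Id4 and Pcna were mixed. Mdk, a secreted growth factor, stood at 91.6 to 124 in later and 219 to 561 in early cells, and Dbi, an acyl-CoA binding protein, at 63.0 to 82.5 and 166 to 434. Both had the opposite sign when every cell was thinned to 2000 UMIs, where the rule left 46, 5, 38 and 10 later and 9, 1, 14 and 3 early cells.

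Some of the lowest genes, known from mature neurons, rested on few cells. Pcp4, a calmodulin regulator of mature neurons, stood at 11.4, 11.4, 20.4 and 40.5 CPM in later cells and at 127, 1579, 92.8 and 686 in early cells, and Snap25, of the vesicle fusion machinery, at 53.7, 183, 69.4 and 51.5 against 95.5, 801, 127 and 346. Early cells of both old libraries were far above those of the young ones, and the 12 early cells that passed the neuron rule were 1 of 101, 3 of 15, 4 of 120 and 4 of 31. Without all cells that passed that rule, median log2 ratios turned from -3.47 to 1.53 for Pcp4, from -1.46 to 0.66 for Snap25 and from -1.34 to 0.47 for Epha5, while all 15 genes named as higher kept their sign in 4 of 4 libraries. The plasma membrane calcium pump gene Atp2b1 moved from -2.36 to -0.43 and then had its sign in 3 of 4. Of the calcium pump list, Atp2a2, Atp2b1 and Calr were lower in later cells in 4 of 4 libraries, and without those cells Calr alone, of the 2 still at this level, was. Of the remaining lists, synaptic genes had 0 higher and 1 lower of 8, receptors and ion channels 1 and 0 of 4 (the sodium channel gene Scn3a), GABA and transmitter genes 0 and 1 of 4 (Gad1), immediate early genes 1 and 2 of 7 (Fos higher, Jun and Klf6 lower), survival genes 0 and 1 of 7 (Trp53), and cyclin kinase inhibitors 1 and 1 of 2 (Cdkn1c higher, Cdkn1b lower).

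**Figure D3:**
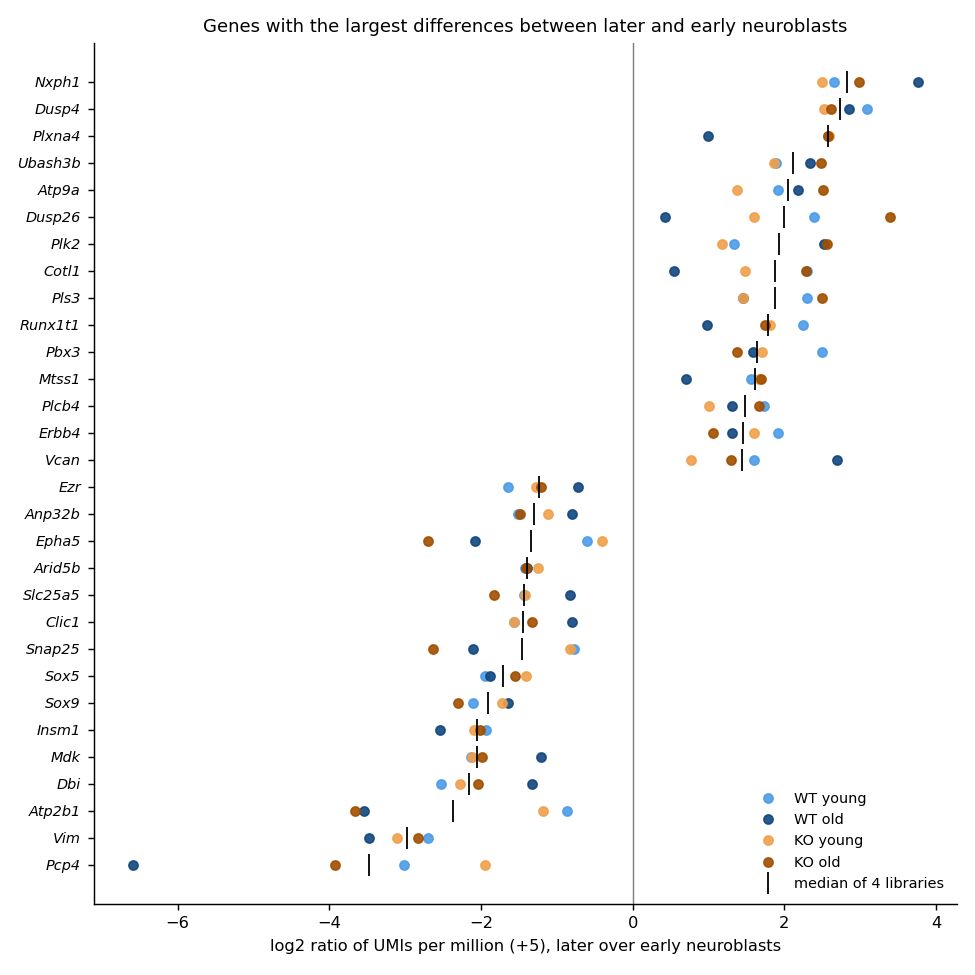
Log2 ratio of CPM, with a pseudocount of 5, in later over early neuroblasts (x axis) for the 15 genes with the highest and the 15 with the lowest median; points are the 4 libraries and bars the median. The ratio runs from 2.83 for Nxph1 to -3.47 for Pcp4, and Pcp4, Atp2b1, Snap25 and Epha5 are spread by age, with both old libraries lower.

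The other named genes lay between these ends. Higher in later cells by a median log2 ratio of 1.45 to 2.74 were the phosphatase genes Dusp4 and Dusp26, the phosphatase Ubash3b, the P4-type ATPase Atp9a, the kinase Plk2, the actin regulators Cotl1, Pls3 and Mtss1, the phospholipase Plcb4 and the matrix proteoglycan Vcan. Lower by -1.24 to -1.71 were the factor Sox5, the chloride channel protein Clic1, the ADP/ATP carrier Slc25a5, the chromatin factor Arid5b, the histone chaperone Anp32b and the membrane-actin linker Ezr. Under thinning, 9 of the 15 higher and 1 of the 15 lower genes kept their sign in 4 of 4 libraries, in the small numbers of cells given above.

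For several of these genes the later neuroblasts lay between the early cells and the Foxp2/Sfrp2 neuroblasts (703 cells), a group that the rule keeps out by those 2 genes. Pbx3 stood at 1143, 914, 953 and 1045 CPM in Foxp2/Sfrp2 cells, above every library of later cells, and Runx1t1 stood at 795, 761, 861 and 884. Tshz1 was at 621, 807, 634 and 729 and Erbb4 at 252, 369, 255 and 329. In the other direction, Ccnd2 was at 943, 796, 913 and 836 and Insm1 at 47.1, 26.6, 34.7 and 18.2, below the later cells of the same library in 4 of 4. Of the 15 genes higher in later than in early cells, 7 were higher still in Foxp2/Sfrp2 cells in 4 of 4 libraries and 0 were lower in 4 of 4. Of the 15 lower genes, 8 were lower still and 4 were higher. The share over all genes was not counted for this comparison, so these counts have no background beside them. Stmn2 did not follow this order: it was highest in later cells in each library, with 3172, 2082, 2795 and 2563 in Foxp2/Sfrp2 cells. The Foxp2/Sfrp2 cells also held Tshz2 at 103 to 165, Chodl at 48.0 to 68.5 and Sln at 11.4 to 52.5, above the Tshz2 and Sln of early cells. The rule for early cells limits these genes and the rule for Foxp2/Sfrp2 cells does not, so the rules set part of that difference. The shallower depth of the Foxp2/Sfrp2 cells (median UMIs 3916 to 5527) moves with the order of the 3 groups. The part of depth was not tested.

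**Figure D4:**
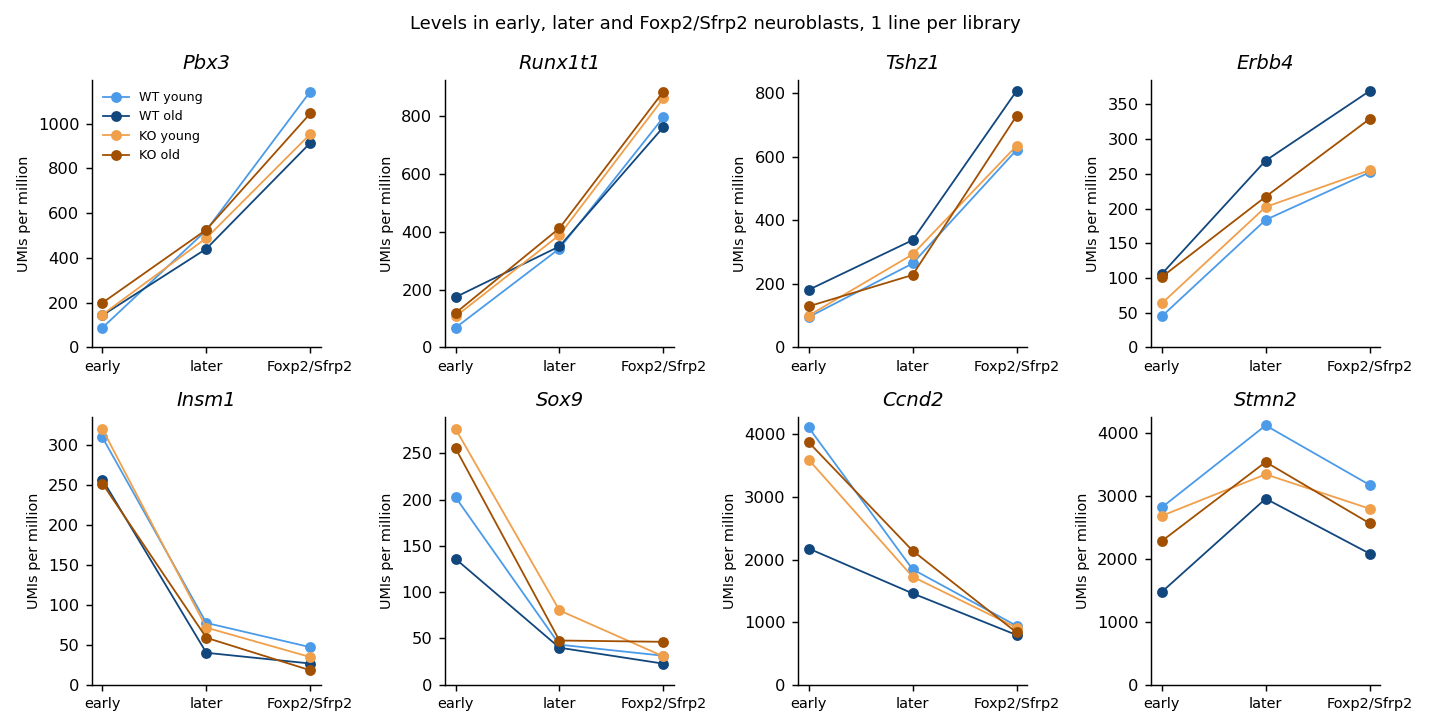
CPM of 8 genes in early, later and Foxp2/Sfrp2 neuroblasts, with 1 line per library and the y axis starting at 0. In each library Pbx3, Runx1t1, Tshz1 and Erbb4 are higher and Insm1, Sox9 and Ccnd2 lower with each step to the right, whereas Stmn2 is highest in later neuroblasts.

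Age was compared over the 2 old against the 2 young libraries, with genotype in the model. Few genes differed: of 6489 genes tested in edgeR, 2 rose with age and 0 fell at a Benjamini-Hochberg adjusted p under 0.05 (0.0308% of the genes tested), against 352 at an unadjusted p under 0.05. DESeq2 called 0 (17 unadjusted). Only 1 degree of freedom was left for error, and the 25 WT old cells set the precision. Syt1 (GRCm38 chr10:108497650-109010982, minus strand) had 68, 44, 87 and 42 UMIs, or 70.2, 252, 63.5 and 155 CPM, in WT young, WT old, KO young, then KO old. Both old libraries were above both young ones, by a log2 fold change of 1.53 ± 0.26 (approximate SE; edgeR quasi-likelihood test, adjusted p = 0.0049). Without the 6 members that passed the neuron rule, which is itself based on Syt1, the change was 0.46 and no gene was called by edgeR (287 unadjusted). Without the WT old library the change was 1.22 and not called. Snhg11, a small nucleolar RNA host gene (chr2:158375638-158386145, plus strand), had 5, 86, 30 and 4 UMIs, and the age groups overlapped. Its log2 fold change of 3.45 ± 0.59 (edgeR, adjusted p = 0.0049) rested on 1 WT old cell of 14887 UMIs, which held 84 of the 86 UMIs, 32 of the 44 Syt1 UMIs and all 34 UMIs of the neuropeptide gene Cck in members. That cell passed the neuron rule. Neither gene was called without the members that passed this rule.

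Of the lists, no gene other than Syt1 was called for age. The 24 microtubule and growth cone genes had 8 higher and 16 lower values in old members, with a median log2 change of -0.17, the 18 guidance genes 9 and 9 (0.02), the 28 transcription factors 13 and 15 (-0.01), the 16 receptors and ion channels 12 and 4 (0.43), the 20 synaptic genes 13 and 7 (0.09) and the 9 immediate early genes 1 and 8 (-0.36), while over all genes tested the median was -0.01. Without the 6 members that passed the neuron rule, the medians were -0.15, 0.04, 0.04, 0.45, -0.23 and -0.27 in the same order, so that the median of the synaptic genes (8 higher and 11 lower of 19) turned. Stmn2 had a ratio of 0.718 in WT old over WT young (95% counting interval 0.653 to 0.787) and of 1.06 in KO old over KO young (0.986 to 1.13), so that the 2 genotypes gave different values, each from 1 pair of libraries and with no test.

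Genotype was compared in the same model, over the 2 KO against the 2 WT libraries. Again 2 genes rose and 0 fell (0.0308% of 6489; 221 at an unadjusted p under 0.05; DESeq2 called 0, with 17 unadjusted). Wdfy1, an endosomal adaptor protein gene (chr1:79702262-79776143, minus strand), had 10, 1, 97 and 14 UMIs in WT young, WT old, KO young, then KO old, or 10.3, 5.72, 70.8 and 51.5 CPM. Both KO libraries were above both WT libraries, by a log2 fold change of 2.82 ± 0.47 (edgeR, adjusted p = 0.0050). Between the young libraries alone, the ratio was 6.86 (95% counting interval 3.58 to 14.8). Dstn, encoding destrin, which depolymerises actin (chr2:143915320-143943324, plus strand), had 243, 36, 629 and 107 UMIs, or 251, 206, 459 and 394 CPM. Its log2 fold change was 0.91 ± 0.18 (edgeR, adjusted p = 0.043), with ratios of 1.83 (1.58 to 2.13) between the young and 1.91 (1.30 to 2.87) between the old libraries. Without KO young, neither gene was called (2.50 for Wdfy1 and 0.77 for Dstn), and Dstn was not called without KO old (0.99). Without the members that passed the neuron rule, 9 genes were called.

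Both genes were higher in both KO libraries in other neuroblasts of the same libraries. Wdfy1 stood at 8.68, 0, 38.8 and 49.0 CPM in early cells of WT young, WT old, KO young, then KO old and at 6.46, 7.61, 49.2 and 38.3 in Foxp2/Sfrp2 cells, and Dstn at 253, 302, 519 and 521 and at 211, 247, 392 and 347. In microglia, Wdfy1 did not have this order, with 24.6, 59.4, 87.1 and 48.4. In near-empty barcodes, which hold free RNA, Wdfy1 stood at 14.1, 17.6, 69.0 and 47.1, with both KO libraries above both WT ones as in members, and Dstn at 166, 81.0, 207 and 96.5, where KO old was below WT young. The part of free RNA was not tested. Litter, strain background and reaction cannot be told apart from the genotype here. Neither can the age at tamoxifen, the chase in young mice (6 weeks in WT, 9 in KO) or the age of old mice (80 weeks in WT, 92 to 105 in KO).

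**Figure D5:**
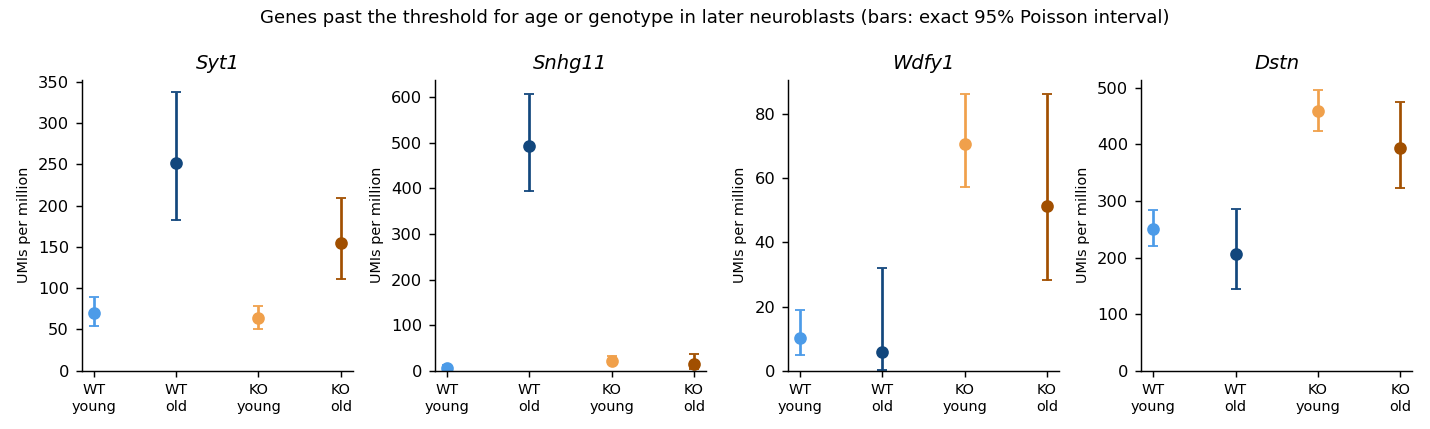
CPM in later neuroblasts (y axis, from 0) of the 4 genes past the threshold for age (Syt1, Snhg11) or genotype (Wdfy1, Dstn), 1 point per library with its exact 95% Poisson interval, which covers counting error only. Wdfy1 and Dstn are higher in both KO libraries and Syt1 in both old ones, while Snhg11 is high in WT old alone, where 84 of its 86 UMIs came from 1 cell.

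Interferon-stimulated genes, which act downstream of the deleted receptors, were barely detected. Of 38 measured core genes, 17 had no UMI in any of the 478 members and 35 had fewer than 20, with 258 UMIs in all. Of these, 2 passed the filter on low counts and neither was called for age or for genotype. Ifi27, an interferon-induced mitochondrial protein gene, had 53, 13, 53 and 10 UMIs and a log2 change of -0.62 ± 0.35 in KO (edgeR, adjusted p = 0.999). Of 10 MHC class I genes, 7 had fewer than 20 UMIs. Ifnar2 and Ifngr2, encoding the other receptor subunits, had 47, 5, 50 and 8 and 35, 11, 69 and 14 UMIs, with changes of -0.30 ± 0.39 and 0.27 ± 0.36 (edgeR, adjusted p = 0.999 for both). The genes with fewer than 20 UMIs had too few counts for a comparison, and no difference was called for the tested ones.

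Of the lists, no gene was called for genotype. The 9 immediate early genes had 1 higher and 8 lower values in KO members, with a median log2 change of -0.64 against 0.01 over all genes tested, and 5 of the lower ones had an unadjusted p under 0.05 (87 lower genes of all 6489). Fos, an activity-induced factor, stood at 341, 263, 226 and 125 CPM, with a change of -0.70 ± 0.19 (edgeR, adjusted p = 0.457). These genes are known to respond to tissue dissociation. In microglia of the same libraries Fos stood at 6773, 9300, 7709 and 8415, and in near-empty barcodes at 758, 644, 593 and 673, above the members. The parts of dissociation and of free RNA were not tested. The 24 microtubule genes had 16 higher and 8 lower values (median 0.03), the 18 guidance genes 12 and 6 (0.32) and the 28 transcription factors 16 and 12 (0.07).

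Whether an age change differed between later and early neuroblasts was tested over 8 sums, with the library as a block. Of 6842 genes tested in edgeR, 30 differed (0.438%), of which 29 had a lower and 1 a higher age change in later cells, with 423 at an unadjusted p under 0.05. Among them were Egr1, Atp2b1 and Syt1. Egr1, an activity-induced factor, stood at 233, 126, 145 and 84.6 CPM in later and at 65.1, 861, 61.5 and 77.0 in early cells, where WT old alone stood high. Atp2b1 stood at 56.8, 91.6, 76.7 and 40.5 in later and at 107, 1118, 181 and 570 in early cells, high in both old libraries. Syt1 rose less with age in later than in early cells, which held 44.8, 824, 134 and 560 CPM (difference -1.46 ± 0.34, edgeR, adjusted p = 0.0061). The single gene in the other direction was Ptprd, a receptor phosphatase, at 28.9, 74.4, 23.4 and 40.5 in later and 28.9, 0, 29.3 and 7.00 in early cells. DESeq2 called 0 (44 unadjusted), and without the cells that passed the neuron rule, which were 3 of 15 and 4 of 31 early cells in the old libraries, edgeR called 0 (197 unadjusted).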

How the data were processed

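The members, the gene lists and the tests were chosen with earlier results of these data known. In the authors' pipeline, index-hopped reads were removed and expression reads were counted with kallisto and bustools, and hashtags with CITE-seq-Count. The deposited matrix held raw UMI counts of 844265 barcodes with no cell filter. The submitters' processing notes named GRCm38 and Scanpy 1.6.0. Of 32287 gene IDs, 32235 were found in GENCODE vM21, which gave symbols and positions. The series had 9 samples: 4 expression libraries, 4 hashtag libraries and 1 hashtag sample whose label gave no group, left out.

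Cells were kept with 1000 to 20000 UMIs, 100 to 6000 genes and under 10% mitochondrial UMIs. Doublets were predicted per library with Scrublet in scanpy 1.11.5. UMIs were summed per library over members (CPM of the members' total) and tested with edgeR 4.0.16 (filterByExpr, TMM, glmQLFit and glmQLFTest, Benjamini-Hochberg over all genes tested), with age and genotype as terms. Each ± value of edgeR is an approximate SE, the absolute log2 fold change over the square root of the F statistic. DESeq2 gave larger SEs, 0.48 for Syt1, 2.19 for Snhg11, 1.04 for Wdfy1 and 0.33 for Dstn. DESeq2 1.42.0, no filter, no second factor, each library left out, doublets left out, a marker sum of at least 5 and thinning were alternatives. Strand use in counting was not given in the sources used here, so antisense or overlapping genes such as Dlx1as may share reads. Libraries served as samples. Their p-values rest in part on the spread between 4 pools, which may be technical. With 1 degree of freedom left for error, edgeR moderates each gene's spread toward that of the other genes.

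Named genes for age and genotype had an adjusted p under 0.05, at least 20 member UMIs and groups that did not overlap, up to 10 per direction, plus listed genes and the receptors Ifnar1, Ifngr1, Ifnar2 and Ifngr2. For later against early they were the 15 highest and the 15 lowest median log2 ratios (pseudocount 5 CPM) with the same sign in 4 of 4 libraries and at least 50 CPM in the higher group, rule genes and predicted genes left out. Snhg11, whose groups overlap, was named after its values were seen, as were Cck and the genes compared between members with and without Sln. Neurons had at least 6 UMIs of Syt1 and Camk2b, microglia at least 6 of the microglia marker list, and near-empty barcodes 5 to under 100 UMIs. Some genes that enter the counts over lists are not reported here by name.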

Additional observations from a re-analysis of the deposited data

Results flagged for a closer look

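The age change differed between later and early neuroblasts in the tested stage by age term for 29 genes that changed less, or fell more, in later cells, and for 1 gene in the other direction (edgeR quasi-likelihood test, Benjamini-Hochberg). Of the 29, the largest differences on the log2 scale were -7.84 for Egr3, -4.99 for Ntng1 and -3.80 for Mef2c, and the 1 gene was Ptprd at 3.62. Egr3 had 22, 1, 15 and 2 UMIs in later and 1, 17, 0 and 3 UMIs in early cells of WT young, WT old, KO young, then KO old, so its value rests on few counts. The summed neuron markers, which include Syt1 and Snap25 of these 29 genes, stood at 133, 441, 148 and 213 CPM in later and at 188, 2093, 322 and 1130 in early cells. The sum is therefore not independent of the called genes. Without the cells that passed the neuron rule, 0 genes were called by edgeR (197 at an unadjusted p under 0.05).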

How the results depend on the processing

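Leaving out cells that passed the neuron rule was chosen after seeing the data. Genes called for age (2) became 0 under DESeq2, without the other factor, with a marker sum of at least 5, with members thinned to 1000 UMIs and without the members that passed the neuron rule, 6 with no filter on low counts, and 0 to 24 with a library left out (4 without WT young, 0 without WT old, 11 without KO young, 24 without KO old). Genes called for genotype (2) became 0 under DESeq2, with a marker sum of at least 5 and under thinning, 1 without the other factor, 10 with no filter, 9 without the members that passed the neuron rule, and 2 to 35 with a library left out (22 without WT young, 35 without WT old, 2 without KO young, 6 without KO old). A fit of 3 libraries held the tested factor alone, and its lone library was assumed to vary like the others. The 30 genes of the stage by age term became 0 under DESeq2 and 0 without the cells that passed the neuron rule. Shares of all cells in WT young, WT old, KO young, then KO old were 0.814%, 0.213%, 0.600% and 0.300% with cells thinned to 2000 UMIs and 0.947%, 0.371%, 1.02% and 0.557% with a marker sum of at least 5. Shares of Dcx cells were 2.37%, 1.74%, 2.04% and 2.17% thinned and 2.38%, 2.85%, 3.55% and 3.63% with that sum, where both old libraries are no longer lowest. Genes higher and lower in later than in early cells numbered 274 and 68 thinned. The sign turned for Pcp4 (1.53), Snap25 (0.66) and Epha5 (0.47) without the cells that passed the neuron rule, and for Dbi (1.25) and Mdk (1.59) thinned. No member was predicted to be a doublet, so leaving doublets out could not change the fits for age and genotype. It moved no other result past its spread or threshold.

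No paired analysis was possible because each group is 1 library of different mice, and its replicate number only names it. Later and early cells of a library were compared with the library as a block. Sums per mouse were not run, since 14 of 478 members had a hashtag call. Subtracting the hashtag make-up of near-empty barcodes could not give a value, because counts after subtraction were below 0 in every library. The 25 WT old members and 15 WT old early cells limit every result on age. Of these early cells, 3 held a UMI of eYFP.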
